A study of Mus musculus with 4 samples.

Results

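Keratins are the intermediate filament proteins of epithelial cells, and 9 of them that mark basal and stratified squamous cells were followed in the embryonic ureter: Krt5, Krt14, Krt15 and Krt17, the inducible keratins Krt6a, Krt6b and Krt16, and the suprabasal pair Krt1 and Krt10. They were taken by name from the arrays. All 12 probes carrying 1 of these names were used, out of 39429 gene probes, and all 9 genes were among the 21517 genes tested. RNA came from E15.5 ureters of the mouse strain NMRI. The ΔNp63-cKO embryos were Pax2-cre/+ with both Trp63 alleles floxed (dN-flox/dN-flox). Control embryos carried at least 1 such floxed allele, with the other written as "?", and no cre is listed for them. On each of 4 arrays, 1 cKO RNA was set against 1 control RNA of the same sex, female in replicates 1 and 2 and male in replicates 3 and 4. The cKO RNA was labelled red in replicates 1 and 3 and green in replicates 2 and 4. Because every cKO RNA and no control RNA comes from embryos with Pax2-cre, presence of the cre and loss of ΔNp63 cannot be told apart. Pax2 is active in the nephric duct lineage, from which the ureter epithelium arises, while the RNA is that of the whole ureter with its mesenchyme and muscle. The labels do not say whether an RNA came from 1 embryo or a pool, so the p-values measure only the spread between these 4 arrays, which may be technical.

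A keratin filament is built from pairs of a type I and a type II chain, and it is tied to desmosomes and hemidesmosomes, which hold epithelial cells to each other and to the basement membrane. Basal cells of stratified epithelia make Krt5 (type II) with Krt14 (type I), and many also make Krt15. Keratinocytes moving up the epidermis switch to Krt1 (type II) and Krt10 (type I). Krt6a and Krt6b (type II) with Krt16 and Krt17 (type I) are known from skin appendages and from wounded or stressed epithelium. In the urothelium, basal cells make Krt5, and the cells above them make uroplakins. ΔNp63, a transcription factor of basal cells, is known to act on keratin genes of stratified epithelia.

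The probes were 60 bases long and lie in 2 keratin gene clusters, with coordinates of build mm9 as the array files give them. On chromosome 15 the type II genes follow each other in the order Krt6b, Krt6a, Krt5 and Krt1, over 169.6 kb between the first and the last probe. On chromosome 11 the order of the type I genes is Krt10, Krt15, Krt14, Krt16 and Krt17, over 871.0 kb. Shown here are the probes on which the results below turn. The 2 rod probes, from the sequence of the central rod of Krt5 (chr15:101542056-101542115, minus strand) and of Krt6b (chr15:101509450-101509509, minus strand), are given because the rod is what type II keratins share. Over their 47 overlapping bases they are identical at 38 and differ at 9, which the capitals mark (80.9% identity). No other pair of a member probe with a probe of a different keratin had as many identical bases among 738 pairs. The next by that number had 29 over 57.
Krt5 rod probe: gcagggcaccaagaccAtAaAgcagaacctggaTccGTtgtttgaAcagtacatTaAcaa
Krt6b rod probe: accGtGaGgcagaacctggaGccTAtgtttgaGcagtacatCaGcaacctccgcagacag
The Krt15 probe (chr11:99993331-99993390, minus strand) ends with the stop codon of the coding sequence, in capitals. The Krt14 probe is spread over 606 bases (chr11:100064683-100065288, minus strand), more than its 60 bases, so it is not contiguous in the genome.
Krt15 probe: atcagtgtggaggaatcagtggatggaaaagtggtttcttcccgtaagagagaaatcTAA
Krt14 probe: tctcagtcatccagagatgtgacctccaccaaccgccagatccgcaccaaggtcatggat
Krt5 has a second probe at the very end of its transcript (chr15:101537514-101537573, minus strand), whose last 30 bases hold a polyadenylation signal, in capitals. The first 30 bases of the Krt6a probe (chr15:101520862-101520921, minus strand) run over the stop codon, in capitals, into the untranslated end.
Krt5 end probe: tgacttcctccagagtctgtccAATAAAat
Krt6a probe: agcaagaagagctacaggcagTGAattctg
The Krt17 and Krt16 probes also hold a polyadenylation signal. A predicted gene, Gm49428, is annotated over the span of Krt6a in assembly GRCm38.p6, and no other member has an overlapping gene there.

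Median spot signals per array ran between 382 and 416 for the green dye and between 519 and 617 for the red one, with 71.8% to 77.0% of the gene probes' spots well above background. Over all genes, the ratios of different arrays correlated with a Pearson r between -0.06 (replicates 2 and 4) and 0.62 (replicates 2 and 3). By rank (Spearman) the same pairs were again lowest and highest, at -0.32 and 0.58, and replicates 3 and 4 were at -0.21. Trp63, the targeted gene, had log2 ratios of cKO over control of -1.39, -1.18, -1.30 and -1.62 in replicates 1 to 4 (limma adjusted p = 0.00328) at its brightest probe. The mean over its kept probes was -0.87 (adjusted p = 0.0179), and whether a probe lies in the deleted part was not analysed here. Markers of the ureter's cell layers were bright in both genotypes: Upk3a, a uroplakin, had a mean level of 16.92 in cKO and 16.91 in control RNA, and Acta2, a smooth muscle actin, had 17.57 in cKO and 17.59 in control RNA. Levels are log2 intensities, comparable between RNAs for 1 probe and not between probes.

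Of the 9 keratins, 5 were lower in cKO ureters at a limma adjusted p under 0.05 and none was higher. Over all 21517 genes, 0.697% were called lower and 0.497% higher, or 1.19% in either direction. By unadjusted p under 0.05, 5 of the 9 were lower and none higher, against 927 and 802 of the 21517 genes. The 5 were all 4 basal keratins and Krt6a, which passed the filter on dim signals through the control RNA alone. Among the 20949 genes above background on all 4 arrays in both genotypes, an alternative chosen after seeing the data, 4 of the 8 members present were lower, the basal keratins, and none was higher, against 0.687% and 0.506% of those genes. In the fit of all genes, Krt6b, Krt16, Krt1 and Krt10 did not pass the test. The median log2 ratio of the 9 was -0.67, against 0.00 over all genes (-0.000240), and on single arrays it was -0.61, -0.61, -1.0 and -0.61. In the same 5 genes every cKO level lay below every control level, which was so for 3.33% of all genes (3.05% had every cKO level above every control level). Their ratios were below 0 on all 4 arrays, as in 7.65% of all genes (7.69% were above 0 on all 4), and no member was above 0 on all 4. By probe, 6 of the 11 member probes that passed the filter on dim signals were lower and none was higher, against 0.58% and 0.433% of all 28611 probes. Of those 6, the Krt6a probe and the Krt6b rod probe were kept through the control RNA alone, and with the probes above background in both genotypes 4 of 9 were lower. These calls need the filter: with every dim probe of the array admitted to the fit, Krt6a alone passed (adjusted p = 0.0424) and the other 4 lay between 0.0514 and 0.132, with the same ratios. With the authors' deposited log2 ratios, 32.2% to 32.6% of which are exactly 0, no member passed over all genes, and the same 5 passed when genes listed at 0 were left out, an alternative chosen after seeing the data.

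**Figure D1:**
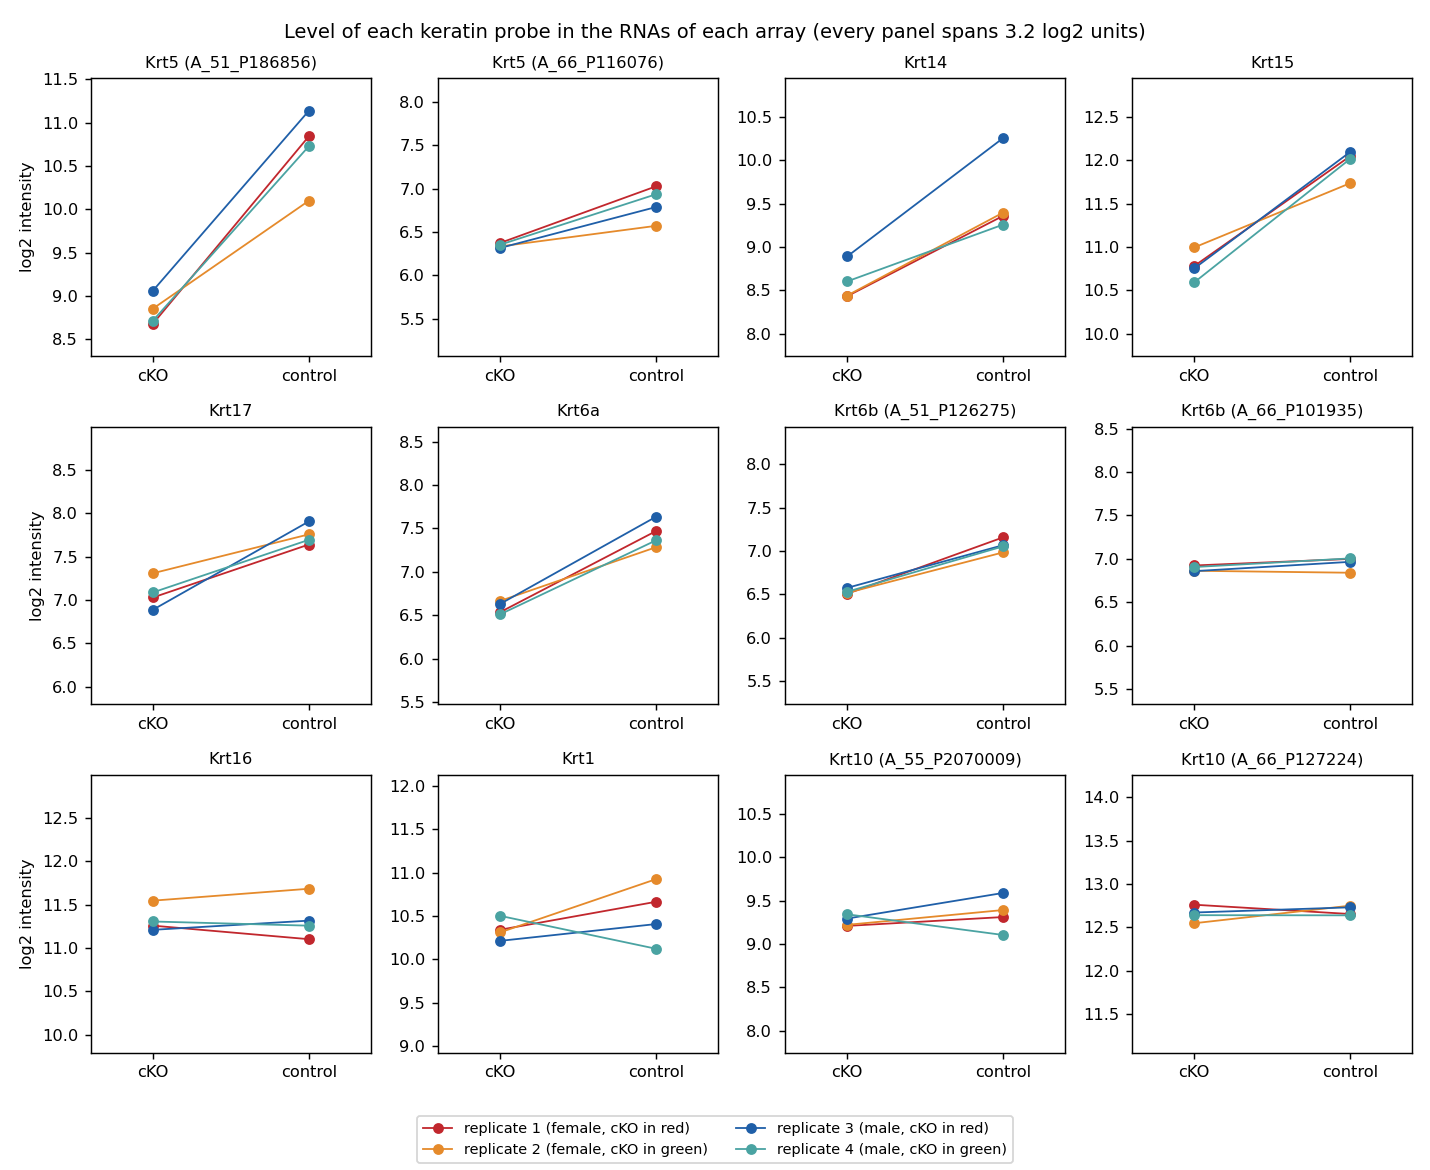
Level of each of the 12 keratin probes (log2 intensity after normalisation of the channels) in the cKO RNA, at left, and the control RNA, at right; a line joins the RNAs of 1 array. All panels span the same number of log2 units, so slopes can be compared; the lines climb toward control in all panels of Krt5, Krt14, Krt15, Krt17 and Krt6a and for 1 of the 2 Krt6b probes.

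Krt5, the type II chain of basal cells, fell furthest of the 9. Its end probe had log2 levels of 8.68, 8.86, 9.06 and 8.72 in the cKO RNAs of replicates 1 to 4, against 10.84, 10.10, 11.14 and 10.73 in the control RNAs. The groups did not overlap, with about 1 log2 unit between the highest cKO and the lowest control value, which belonged to replicates 3 and 2. The ratios of cKO over control were -2.16, -1.24, -2.07 and -2.01, and their mean of -1.87 ± 0.42 (SD, n = 4) is 3.66-fold lower (limma adjusted p = 0.00353, 95% confidence interval -2.19 to -1.55). Its ratio ranked 9 from the lowest among the 21517 genes. The signal stayed readable in both genotypes, at 6.76 to 14.6 times the local background in cKO and 16.4 to 76.6 times in control RNA, and the 4 spots of the probe on an array differed by an SD of 0.038 to 0.079. Females averaged -1.70 and males -2.04. The mean was -2.12 where the cKO RNA was red and -1.63 where it was green.

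The rod probe of Krt5 was dim. In cKO RNA it was at 6.37, 6.33, 6.31 and 6.35 and was well above background on none of the 4 arrays, against 7.03, 6.57, 6.79 and 6.93 in control RNA, where it was well above background on 3. Every cKO value was below every control value here too. Measured ratios were -0.65, -0.24, -0.47 and -0.58, mean -0.49 ± 0.18 (SD, n = 4). A stand-in was therefore used for the cKO level. It was the lowest level of any probe well above background on the array, or the measured value where higher. Against this stand-in, with a mean of 6.43, the control mean of 6.83 was 1.32-fold higher. That mean includes the array on which the probe was not well above background in control RNA, so 1.32 is no firm lower limit. The Krt5 rod probe was not among the probes tested. In the authors' deposited log2 ratios this probe is listed at 0 on 3 arrays and at -0.0042 on replicate 1, so its ratios on single arrays are not read further.

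Krt14, the usual partner of Krt5, was at 8.43, 8.44, 8.89 and 8.60 in cKO ureters, against 9.36, 9.40, 10.26 and 9.26 in control ureters. All cKO values were below all control values, and the RNAs of replicate 3 were the highest within both genotypes. The ratios were -0.93, -0.96, -1.36 and -0.65, mean -0.98 ± 0.29 (SD, n = 4), or 1.97-fold lower (limma adjusted p = 0.0140). Krt15, a second type I keratin of basal cells, had levels of 10.78, 10.99, 10.75 and 10.59 in cKO and 12.05, 11.74, 12.10 and 12.02 in control RNA. Here the groups were well apart, and replicate 2 had both the highest cKO and the lowest control level. Its ratios were -1.27, -0.74, -1.34 and -1.42, mean -1.19 ± 0.31 (SD, n = 4), or 2.29-fold lower (limma adjusted p = 0.0122).

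Krt17, which pairs with type II keratins in basal and appendage cells, was at 7.03, 7.31, 6.89 and 7.09 in cKO RNA, against 7.64, 7.76, 7.91 and 7.70 in control RNA. No cKO level reached the lowest control level. The ratios were -0.61, -0.45, -1.02 and -0.61, mean -0.67 ± 0.24 (SD, n = 4), or 1.59-fold lower (limma adjusted p = 0.0376). Replicate 3 had the largest decrease, and without it the fitted ratio was -0.57 and missed the threshold (limma adjusted p = 0.0627). That fit used 1 variance for all genes, so its p-value does not measure the spread of Krt17 itself. The probe was close to background, at 1.78 to 3.99 times the local background in cKO and 3.17 to 7.26 times in control RNA, and the size of the ratio depended on how background was removed. It was -1.23 with Agilent's processed signals (adjusted p = 0.0192) and averaged -1.14 in the log2 ratios the authors deposited.

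**Figure D2:**
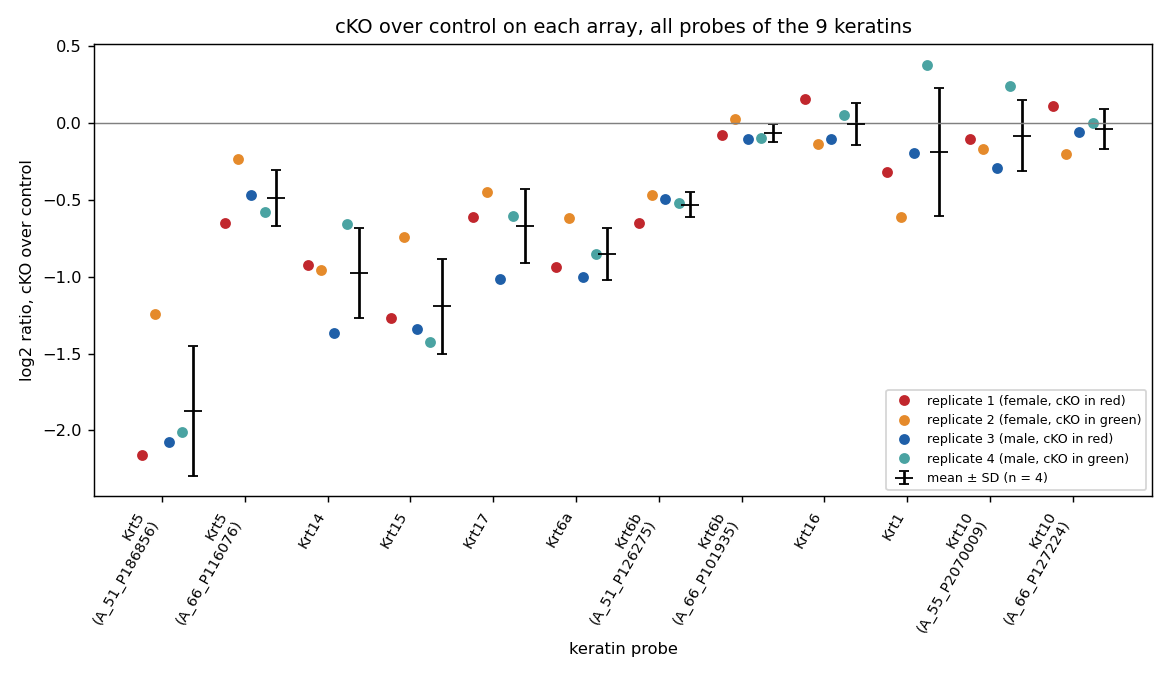
Log2 ratio of cKO over control on each of the 4 arrays for every probe of the 9 keratins, coloured by replicate, with the mean and SD of the 4 arrays in black. The points of the basal keratins and Krt6a all lie below 0, the means running from -1.87 for the Krt5 end probe to -0.67 for Krt17, while those of Krt16, Krt1 and Krt10 lie on both sides of 0.

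Among the inducible keratins, Krt6a passed the test by gene and the others did not. Krt6a was at 6.53, 6.66, 6.63 and 6.51 in cKO ureters, against 7.47, 7.28, 7.63 and 7.36 in control ureters. The cKO values lay close together and below all control values. Ratios of -0.93, -0.62, -1.0 and -0.85 averaged -0.85 ± 0.17 (SD, n = 4) as measured (limma adjusted p = 0.00856). In cKO RNA the probe was well above background on 2 of 4 arrays, at 1.35 to 2.12 times the local background, and in control RNA on all 4, at 2.23 to 5.78 times. Since the filter admitted Krt6a through its brighter side, the size of its ratio is uncertain. With Agilent's processed signals the fitted ratio was -2.08 (adjusted p = 0.00198), and in the authors' deposited log2 ratios it averaged -0.85.

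Krt6b, a close relative of Krt6a, gave different results at its 2 probes. At the brighter one, A_66_P101935 (chromosome 15, 101506492 to 101506551), the levels were 6.92, 6.86, 6.86 and 6.90 in cKO and 7.0, 6.84, 6.96 and 7.0 in control RNA. The groups overlapped, with a mean ratio of -0.06 ± 0.06 (SD, n = 4, limma adjusted p = 1.00, 95% confidence interval -0.24 to 0.11). At the rod probe they were 6.51, 6.52, 6.57 and 6.53 in cKO, well above background on 1 array, against 7.16, 6.98, 7.07 and 7.05 in control RNA, well above it on all 4. There the groups did not overlap, and the ratios of -0.65, -0.47, -0.49 and -0.52, mean -0.53 ± 0.08 (SD, n = 4), had a limma adjusted p of 0.0394 in the fit by probe. The probe was kept through control RNA alone, and its mean ratio was -1.6 with Agilent's processed signals and -0.17 in the authors' deposited log2 ratios, so its size is uncertain too. The mean of both probes was -0.30 and did not pass (adjusted p = 0.188). The rod probe of Krt6b is the one that resembles the Krt5 rod probe printed above, and how much Krt5 transcript it captures was not tested.

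Krt16, the type I partner of Krt6a in stressed skin, had levels of 11.26, 11.55, 11.21 and 11.31 in cKO RNA and 11.10, 11.68, 11.32 and 11.26 in control RNA. The groups overlapped throughout, and replicate 2 was highest in both. The ratio was above 0 on replicates 1 and 4 and below 0 on replicates 2 and 3, with a mean of -0.01 ± 0.14 (SD, n = 4, limma adjusted p = 1.00) and a 95% confidence interval of -0.21 to 0.19. The Krt16 probe was far from background, at 38.5 to 97.0 times the local background in cKO and 41.1 to 84.6 times in control RNA. Its gene lies between Krt14 and Krt17, with probes 42.7 kb from that of Krt14 and 10.1 kb from that of Krt17, both of which were lower in cKO.

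Neither suprabasal keratin passed the test. Krt1 was at 10.34, 10.31, 10.21 and 10.50 in cKO ureters, against 10.66, 10.92, 10.41 and 10.12 in control ureters. The levels overlapped, and replicate 4 ran opposite to the others, with the highest cKO and the lowest control level. The ratios were -0.32, -0.61, -0.19 and 0.38, mean -0.19 ± 0.42 (SD, n = 4, limma adjusted p = 1.00, 95% confidence interval -0.58 to 0.20). In the fit with a dye term, the ratio was -0.44 without replicate 4 and 0.06 without replicate 2. These fitted ratios are not plain means of the remaining arrays, since each fit leaves a single array for a dye order. The sign of the Krt1 ratio thus depended on which array was left out. Females averaged -0.47 and males 0.09, a difference of -0.56 with an unadjusted p of 0.0381 in limma and an adjusted p of 1.00.

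Krt10 is represented by the brighter of its 2 probes, A_66_P127224 (chromosome 11, 99246538 to 99246558 as listed, 21 of its 60 bases). Levels were 12.76, 12.55, 12.67 and 12.64 in cKO and 12.66, 12.75, 12.73 and 12.64 in control RNA. The groups overlapped, and the ratios ran between -0.20 on replicate 2 and 0.11 on replicate 1. The mean ratio was -0.04 ± 0.13 (SD, n = 4, limma adjusted p = 1.00, 95% confidence interval -0.23 to 0.16). The second probe (chromosome 11, 99247846 to 99247905) had ratios of -0.10, -0.17, -0.29 and 0.24, mean -0.08 ± 0.23, and did not pass either. Replicate 4 was the array with a positive ratio at this probe, as at Krt1.

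**Figure D3:**
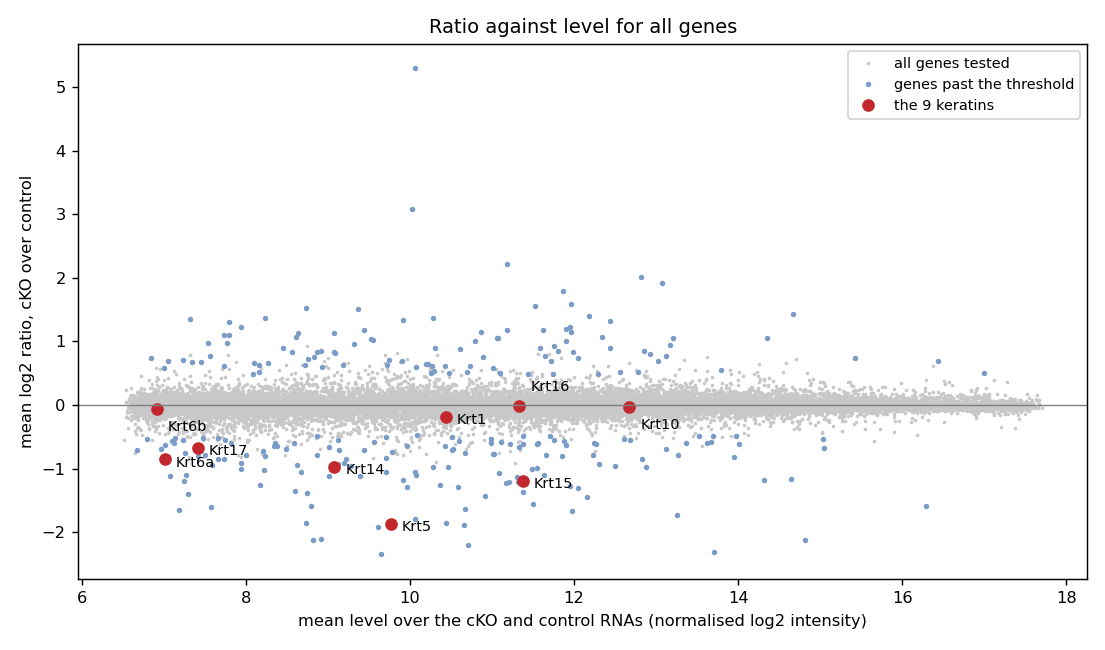
Mean log2 ratio of cKO over control against the mean level over both RNAs (log2 intensity) for all 21517 genes tested, with genes past an adjusted p of 0.05 in blue and the 9 keratins in red and named. The 5 keratins past the threshold lie between -1.87 and -0.67, and the other 4 between -0.19 and -0.01, within the grey band around 0.

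The order of the arrays was not the same for all members. Krt5, Krt15, Krt17 and Krt6a each had their smallest decrease on replicate 2, the array on which the Trp63 ratio was also nearest to 0 (-1.18). Krt14 had its smallest decrease on replicate 4 (-0.65), and Krt16, Krt1 and Krt10 had their lowest ratio on replicate 2 (-0.14, -0.61 and -0.20). No member passed the test of a difference of the cKO effect between sexes, in which 15 of all 21517 genes (0.0697%) did, and Krt1 was the member with an unadjusted p under 0.05. The fit for the sex test used 1 variance for all genes. Its p-values, those given for Krt1 among them, do not measure a gene's own spread. No gene passed the test of a dye effect at an adjusted p under 0.05 in limma (0% of 21517, with 430 at an unadjusted p under 0.05, none of them a member).

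Within an array, 6 pairs of keratins were compared by the difference of their log2 ratios in an exact two-sided sign-flip permutation test over 4 arrays, which cannot give a p below 0.125. Krt5 had a lower ratio than its partner Krt14 on all 4 arrays, with differences of -1.23, -0.29, -0.71 and -1.36 (mean -0.90 ± 0.49, exact p = 0.125, 0.188 adjusted over the pairs). Krt5 also had the lower ratio against Krt15 on 4 of 4 arrays (mean -0.68 ± 0.17, same p-values). So did Krt6a against Krt16 (-0.84 ± 0.26) and against Krt6b (-0.79 ± 0.12), with the same p-values. These rest on a Krt6a probe that was well above background on 2 of the 4 cKO arrays. Krt6b stands here and below with its brighter probe alone (-0.06). Its rod probe, at -0.53, was nearer to Krt6a (-0.85), and the difference from that probe was not tested. The difference of Krt6a from Krt17 was -0.18 ± 0.14 with the same sign on 3 arrays (exact p = 0.25, adjusted 0.3), and that of Krt1 from Krt10 was -0.15 ± 0.38, also on 3 (exact p = 0.375, adjusted 0.375). No pair could pass a threshold of 0.05 with 4 arrays. With Agilent's processed signals the differences that involve Krt6a were larger, at -2.06 from Krt16, -1.90 from Krt6b and -0.84 from Krt17.

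Among the other listed keratins of the array, the calls were increases. Krt42 and Krt222 are on the array but were in no list and are not counted here. Of the 41 further keratin genes listed by place of expression and on the array, 26 passed the filter and were tested in limma. None of the 26 was lower and 2 were higher at an adjusted p under 0.05, against 0.697% and 0.497% of all genes. By unadjusted p under 0.05, 5 were lower and 6 higher, against 927 and 802 of all 21517 genes. The median was -0.05. The 2 that rose belong to the 6 keratins of simple and luminal epithelium: Krt20, a keratin of superficial urothelial cells, had ratios of 1.86, 2.05, 2.08 and 1.67 (mean 1.92 ± 0.19, limma adjusted p = 0.00162). Krt18, the type I keratin of simple epithelia, had 0.65, 0.36, 0.60 and 0.39 (0.50 ± 0.14, adjusted p = 0.0378). It missed the threshold when replicate 1 (fitted ratio 0.49, adjusted p = 0.177) or replicate 3 (fitted ratio 0.51, adjusted p = 0.159) was left out. Those fits used 1 variance for all genes, so their p-values do not measure the spread of Krt18 itself. Krt18 also missed the threshold with Agilent's processed signals (adjusted p = 0.0571), with median centring (0.124) and with no filter on dim probes (0.0612). Its partner Krt8 was at 0.37 ± 0.19 (adjusted p = 0.102), and Krt7 and Krt19 were at -0.29 and -0.10. None of 4 mucosal keratins passed, with Krt4 at 0.46 ± 0.31 and Krt78 at -0.20 ± 0.15. Nor did any of 4 other epidermal and corneal ones, with Krt12 at 0.39 ± 0.18 and Krt80 at -0.16 ± 0.17, or of 12 hair and root sheath keratins, with Krt35 at -0.29 ± 0.08 and Krt75 at -0.29 ± 0.12.

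**Figure D4:**
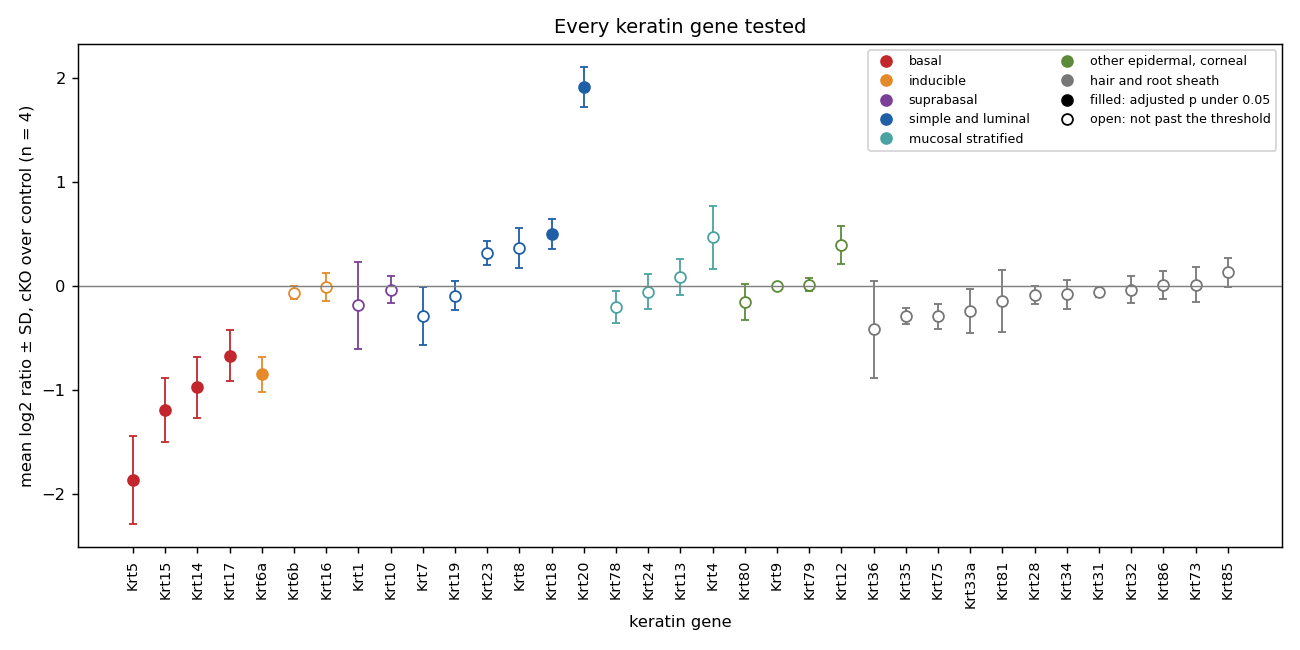
Mean log2 ratio of cKO over control with SD (n = 4 arrays) for all listed keratin genes tested, grouped by where they are known to be expressed. Filled symbols passed a limma adjusted p of 0.05. The filled symbols below 0 are Krt5, Krt15, Krt14, Krt17 and Krt6a, and those above 0 are Krt18 and Krt20.

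The RNA of genes whose proteins anchor keratin filaments changed in part. Of 8 such linker genes, 2 were lower and none higher, against 0.697% and 0.497% of all genes, with a median of -0.30. The 2 were Pkp1, a desmosomal plaque protein of stratified epithelia, at -2.11 ± 0.29 (limma adjusted p = 0.000874), and Ppl, which links filaments to the cornified envelope, at -0.59 ± 0.12 (adjusted p = 0.0361). Dsp, the desmosomal protein that binds keratins directly, was at -0.32 ± 0.20 and Plec, the hemidesmosomal linker, at 0.01 ± 0.18, neither of which passed. Of 8 transcription factors known to act on stratified keratin genes, the targeted gene Trp63 among them, 4 were lower and none higher (median -0.53). Over all genes, 0.697% were called lower and 0.497% higher. By unadjusted p under 0.05, 5 of the 8 were lower and 1 was higher, Klf4 at 0.30 ± 0.19 (limma adjusted p = 0.347). Of all 21517 genes, 927 were lower and 802 higher by that measure. Besides Trp63 (-1.37 ± 0.18 at its brightest probe), the genes called lower were Zfp750 at -1.86 ± 0.20 (adjusted p = 0.00136), Tfap2c at -1.11 ± 0.21 (adjusted p = 0.00410) and Grhl3 at -0.68 ± 0.22 (adjusted p = 0.0471).

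Among the genes, keratins aside, whose ratios on the 4 arrays lay nearest to those of Krt5 were Perp, a desmosome-associated membrane protein (Euclidean distance 0.523 in log2 units), Zfp750 (0.532) and Lypd3, a surface protein of the Ly6 family (0.582). Perp had ratios of -2.30, -1.58, -2.32 and -2.30, with the smallest decrease on replicate 2. Nearest to Krt15 were Srd5a1, a steroid reductase (0.128), Fat2, a large cadherin (0.234), Pdgfa, a growth factor (0.253), and Nfe2l3, a transcription factor (0.273). The ratios of Srd5a1 were -1.24, -0.77, -1.24 and -1.49, with the smallest decrease on replicate 2. Perp and Srd5a1 were picked for closeness on these same arrays, so the smallest decrease shared with Krt5 and Krt15 is no separate result.

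In whole ureters, fewer cells of a type and less RNA per cell cannot be told apart, so the levels of cell type markers are given beside the keratins. Of 8 basal markers that are no keratins, 3 were lower and none higher, against 0.697% and 0.497% of all genes. The 3 were Dapl1 at -2.12 ± 0.25, Cdh3, P-cadherin, at -1.66 ± 0.42, and Itgb4, the hemidesmosomal integrin chain, at -1.45 ± 0.36. The list's median was -0.20. Sums given here are the log2 of the added intensities of a list, in which its brightest probes weigh most. For the basal markers the sum was 15.504 to 15.71 in cKO and 15.78 to 16.07 in control RNAs, and the brightest of them, Itga6, was at -0.14 ± 0.29. Of 12 general epithelial genes none passed. By unadjusted p under 0.05, 3 were lower and 1 higher, against 927 and 802 of all 21517 genes. The median was -0.12, with a sum of 17.30 to 17.48 in cKO and 17.46 to 17.67 in control RNAs. Cldn3, a claudin of tight junctions, was at -0.91 ± 0.43 (adjusted p = 0.0778) and Elf3, an epithelial transcription factor, at 0.33 ± 0.19. Of 6 superficial markers, 1 was lower, Upk2 (-0.54 ± 0.11), and none higher, against 0.697% and 0.497% of all genes. Upk3b was at 0.32 ± 0.17. The median of these markers was 0.00 (-0.000282), with sums of 17.86 to 18.11 in cKO and 17.97 to 18.33 in control RNAs. None of 9 mesenchymal genes passed (Foxf1 at 0.45 ± 0.31, Aldh1a2 at 0.19 ± 0.15), with sums of 19.22 to 19.49 in cKO and 19.22 to 19.50 in control RNAs. None of 7 smooth muscle genes did either (Myocd at 0.24 ± 0.44, Cnn1 at 0.11 ± 0.12), with sums of 18.57 to 18.84 in cKO and 18.59 to 18.70 in control RNAs. The part of these cell types in the keratin ratios was not tested.

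Genes of differentiated epidermis were also measured, since Krt1 and Krt10 belong to that tissue. Of 11, 4 (Flg2, Dsg1a, Dsc1 and Kprp) were not kept because they were too dim in both genotypes. Of the other 7, 1 was lower and none higher, against 0.697% and 0.497% of all genes. The gene called lower was Calml3, a calmodulin-like protein of keratinocytes (-0.78 ± 0.22, limma adjusted p = 0.0273). Ivl, the envelope protein involucrin, was at -0.77 ± 0.34 (adjusted p = 0.0842), and Lor, loricrin, was at 0.14 ± 0.25. The list's median was -0.41, and the log2 of its added intensities was 11.94 to 11.98 in cKO and 11.98 to 12.35 in control RNAs.

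A promoter sequence was at hand for 3 of the 9 genes, Krt5, Krt14 and Krt10, each covering 250 bases before and 50 after an annotated start (RefSeq, GRCm38.p6). That of Krt5 is shown because Krt5 had the largest decrease. The 250 bases before its start (chr15:101712906-101713155, minus strand) hold 1 match, in capitals, to the decamer motif of the p53 family, to which p63 belongs. The match begins 95 bases before the start and is found on either strand, and the CATG of this window lies inside it.
Krt5 promoter: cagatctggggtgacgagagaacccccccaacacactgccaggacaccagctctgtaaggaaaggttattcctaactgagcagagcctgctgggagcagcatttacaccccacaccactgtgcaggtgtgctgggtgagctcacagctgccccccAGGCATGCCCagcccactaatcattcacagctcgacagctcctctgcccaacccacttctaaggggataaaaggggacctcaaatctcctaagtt
Of 32851 promoters of the same length, 2745 (8.36%) hold the motif on either strand, and 61.1% hold CATG. The windows of Krt14 and Krt10 hold CATG and no match to the decamer. The Krt14 window belongs to a start 1480 bases inside the annotated gene, and that of Krt10 to one 8085 bases inside. A box of ATAAAA stands 29 bases before the start of Krt5 (found in 18.5% of promoters) and one of TATAAA 26 bases before that of Krt10 (13.6%). A match describes these letters and does not show binding.

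**Figure D5:**
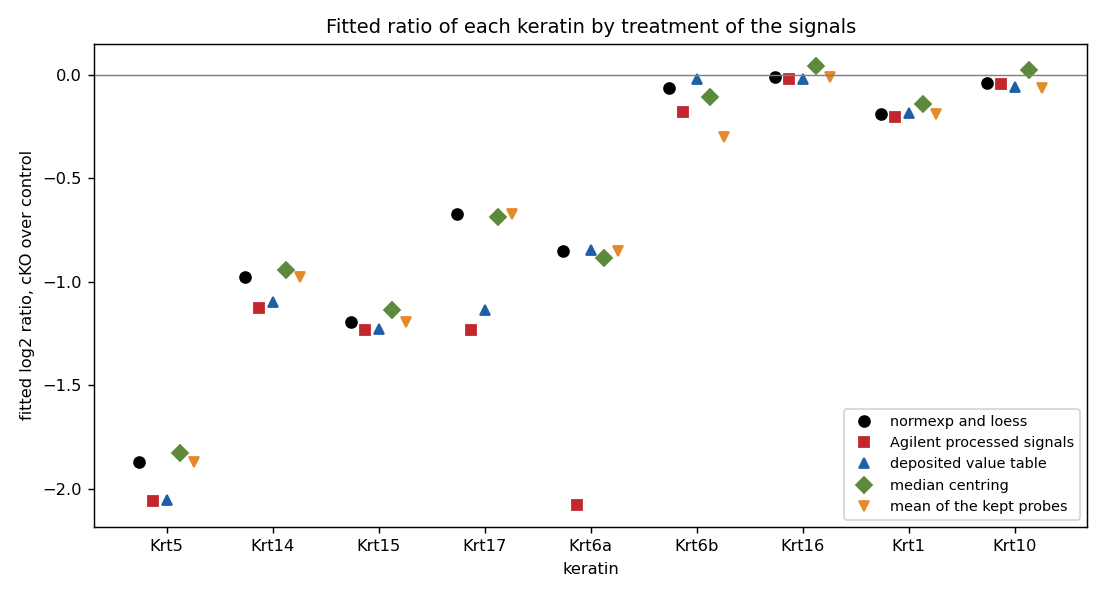
Fitted log2 ratio of cKO over control for the 9 keratins under 5 treatments of the signals: normexp with loess, Agilent's processed signals, the authors' deposited log2 ratios, median centring in place of loess, and the mean of all kept probes of a gene. The treatments lie close together for Krt5, Krt14, Krt15, Krt1 and Krt10 and apart for the dim probes of Krt17 and Krt6a, where processed signals give -1.23 and -2.08, and for Krt6b.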

How the data were processed

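Scanner files hold spot intensity values (mean signal and local background of both dyes) written by Agilent Feature Extraction 10.7.3.1 according to the submitters' processing notes and, per the file headers, with processed intensities and other flags beside them. The deposited value table holds log2 ratios, which set against the processed signals run as cKO over control (slope 1.00 per array), with 32.2% to 32.6% at exactly 0. Labelling used 200 ng of total RNA. Slide and scan date are the same for all arrays, so there is no batch of either kind. Here, normexp (offset 50), loess with control spots at weight 0 and averaging of the 4 spots gave log2 ratios, and levels are channel values after Aquantile. The filter on dim signals kept a probe if, in cKO or in control RNA, the software called a share of 0.5 or more of its spots well above background on each of the 4 arrays. The brightest kept probe stood for a gene. limma 3.58.1 (R 4.3.3) fitted cKO over control with a dye intercept, and p-values were adjusted by Benjamini-Hochberg over 21517 genes. All adjusted p-values of genes and probes come from limma. An array holds 1 RNA of each genotype, so it is the pair. The array count limits precision. Names came from the files, 30385 probes matching GRCm38.p6 symbols and 1343 an accession. The members and lists were chosen with earlier results of these data known. Named genes are the members, Trp63, keratins past the threshold, the 2 smallest p of each list and the 4 genes nearest to Krt5 and to Krt15, with other list genes as examples. Results of some genes under this rule are not reported here.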

Additional observations from a re-analysis of the deposited data

Results flagged for a closer look

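A sample far from the other 3 was found in 2 of 36 groups of 4 values tested (Dixon's criterion at the 95% level), and chance alone marks about 1 in 20 such groups. The Krt5 end probe had a ratio of -1.24 on replicate 2, against -2.16, -2.07 and -2.01 on the others, with a gap of 0.836 of the range. The control level of Krt14 was 10.26 on replicate 3, against 9.36, 9.40 and 9.26 on the others, a gap of 0.862 of the range.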

How the results depend on the processing

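The 5 decreases kept their direction in all 14 alternatives, or 13 for Krt6a, which is not among the genes above background in both genotypes. Adjusted p-values reached 0.233 for Krt5, 0.303 for Krt14 and Krt17, 0.308 for Krt15 and 0.272 for Krt6a, all with the deposited table, in which no member was called lower. Over all genes that table gave 0 lower and 1 higher calls (0 other keratins higher). When the genes listed at 0 on any array were left out, an alternative chosen after seeing the data, it gave 198 lower and 135 higher, with 5 members lower. Requiring signal above background in both genotypes, also chosen after seeing the data, gave 144 lower and 106 higher, with 4 members lower. With no filter on dim probes, 55 genes were lower and 31 higher, fewer than in the fit reported, 1 member gene and 1 member probe were lower against 5 and 6, and 1 other keratin was higher against 2. Without the dye term 266 genes were lower and 194 higher, and with a sex term 309 and 233. The fit with a sex term, and those without replicate 1 or 3, used 1 variance for all genes. The array is the pair in the fit reported. With the 8 channels fitted with no replicate block, 217 genes were lower and 169 higher, and Krt14 missed the threshold (adjusted p = 0.0755), leaving 4 members. Leaving out 1 array gave 155 to 853 lower and 128 to 748 higher genes, most of them without replicate 4 or 2 (508 and 429), with 4 to 6 members lower, 0 to 4 other keratins lower and 1 to 5 higher. The causes were not tested. Processed signals gave 1 other keratin lower and 1 higher, and median centring 1 higher. The near-zero fitted ratio of Krt16 turned sign with median centring (0.044). Across left-out arrays it ran between -0.075 and 0.056 (above 0 without replicate 2 or 3). That of Krt10 likewise turned with median centring (0.025) and ran between -0.089 and 0.013 (above 0 without replicate 2, and at 0.0034 without replicate 3), and that of Krt1 ran between -0.44 (without replicate 4) and 0.061 (without replicate 2). The differences within 6 keratin pairs kept their sign whichever array was left out: -1.10 to -0.74 for Krt5 and Krt14, -0.74 to -0.61 for Krt5 and Krt15, -0.32 to -0.06 for Krt1 and Krt10, -0.96 to -0.76 for Krt6a and Krt16, -0.25 to -0.13 for Krt6a and Krt17, and -0.84 to -0.75 for Krt6a and Krt6b. Signal over background limits the dim probes of Krt17, Krt6a and Krt6b and the Krt5 rod probe.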
